A study of Mus musculus with 14 samples.

Results

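The 10 genes described here encode the proteins of the desmosome, the spot-like junction that ties the keratin filaments of neighbouring epithelial cells together. They are the desmosomal cadherins Dsc2, Dsc3, Dsg2 and Dsg3, the armadillo proteins Jup, Pkp1, Pkp2 and Pkp3, the plakin Dsp, and the membrane protein gene Perp. Each was represented by the probe set with the highest mean among those annotated with its symbol alone, and none was removed for a low level. This gave 10 of the 22180 genes on the first array design and 10 of 19938 on the second. The set was chosen by measured values of the same arrays: earlier results had shown Dsc3, Perp and Dsp far above the other tumours in the Res 177 tumour of the first design. The levels in that tumour are therefore a description and carry no test. The Res 499 change from control and the second array design were not the stated basis of the choice. However, earlier results of these data were known when the members were chosen, and the other tumours in that gap included Res 499.

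The study grew tumours from B16-F10, a pigmented melanoma line of C57BL/6 mice. The sublines Res 499 and Res 177 were recovered from unirradiated tumours that resisted or relapsed after irradiation of the opposite flank (20 Gy on day 8) together with the CTLA4-blocking antibody 9H10 on days 5, 8 and 11, and both are labelled resistant. The control tumours came from cells labelled sensitive. The first design held 4 control, 7 Res 499 and 1 Res 177 tumours, and the second held 1 control and 1 Res 177 tumour. The labels leave out whether these tumours were themselves treated, the age of the mice, and whether each tumour of a group had its own mouse, and p-values therefore measure only the spread among these samples, which may be technical. Each resistant subline is a single isolate, and its tumours do not stand for resistant tumours in general. All values are log2 levels from RMA, a normalization that makes arrays of 1 design comparable. Levels of different probe sets, or of the 2 designs, are not set against each other.

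In a desmosome the extracellular parts of desmocollins (Dsc) and desmogleins (Dsg) bind those of the next cell. Plakoglobin (Jup) and plakophilins (Pkp) bind their cytoplasmic tails, and desmoplakin (Dsp) links this plaque to the keratin filaments. Dsc2 and Dsg2 are the widespread forms, found also in simple epithelia and heart, while Dsc3, Dsg3 and Pkp1 belong to stratified epithelia such as epidermis and the hair follicle. Perp is a target of p53 and p63 needed for desmosome assembly in skin. Melanocytes and melanoma cells have no keratin-anchored desmosomes of the epidermal kind and contact keratinocytes mainly through cadherins of adherens junctions, while plakoglobin also serves in adherens junctions.

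The start regions of Dsp and Jup are shown because these 2 members have an entry in the RefSeq promoter table used here. Dsp stood far higher in Res 177 than in the other tumours and Jup, which lies beside it in the plaque, did not. Each sequence, from RefSeq on GRCm38.p6, runs 5′ to 3′ on the gene's strand from 250 bases before to 50 bases after the annotated start, and the capitals mark the 50 bases from the start. Dsp lies at chr13:38151044-38151343 on the plus strand and Jup at chr11:100397741-100398040 on the minus strand.
Dsp: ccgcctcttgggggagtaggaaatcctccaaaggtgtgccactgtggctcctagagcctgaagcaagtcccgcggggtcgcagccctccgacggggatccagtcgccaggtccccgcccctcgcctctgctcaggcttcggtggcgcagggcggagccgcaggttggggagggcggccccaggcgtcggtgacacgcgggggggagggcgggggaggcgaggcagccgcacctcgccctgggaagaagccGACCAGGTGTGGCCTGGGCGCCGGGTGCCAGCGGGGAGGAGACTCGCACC
Jup: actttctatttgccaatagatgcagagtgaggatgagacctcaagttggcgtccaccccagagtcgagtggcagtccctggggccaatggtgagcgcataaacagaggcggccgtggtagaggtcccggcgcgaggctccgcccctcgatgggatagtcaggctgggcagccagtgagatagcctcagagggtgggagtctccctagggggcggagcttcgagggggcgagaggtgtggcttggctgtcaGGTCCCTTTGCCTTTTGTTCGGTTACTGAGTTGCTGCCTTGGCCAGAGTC
The Dsp window was 73.0% G and C and the Jup window 60.7%, against a median of 52.7% over 32851 promoter windows of the same length. Neither held the AP-1 motif TGANTCA, the grainyhead motif AACCNGTT or the p53-family half-site core ACATGT on either strand. Those motifs were present in 7.81%, 2.09% and 5.28% of all windows.

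Melanocyte genes were high in every tumour, as the label requires. The mean of 9 melanocyte markers lay within -0.13 to 0.22 of the control mean in all 12 tumours of the first design, and that of the Res 177 tumour at -0.02. Pmel, the pigment fibril gene, was at 13.26 ± 0.07 (SD, n = 4) in control, 13.42 ± 0.08 (SD, n = 7) in Res 499 and 13.36 in Res 177. Correlations between the 12 arrays ran from 0.977 to 0.993. The tumours differed in leukocyte RNA: the mean of 5 leukocyte markers, relative to control, lay between 1.28 and 1.71 in Res 499 replicates 1, 2, 3 and 5, between -0.39 and 0.29 in replicates 4, 6 and 7, and at 1.02 in Res 177. In bulk tumours, fewer cells of a type and less RNA per cell cannot be told apart.

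Dsc3 and Dsg3, the cadherins of stratified epithelia, lay 3.02 and 1.33 above every other tumour in Res 177, whereas Dsc2 lay 0.15 above and Dsg2 inside the control range. Dsc3, a desmocollin of basal epidermis, was at 4.62, 4.72, 4.67 and 4.83 in control replicates 2 to 5 and between 4.60 and 4.94 in Res 499, with a median of 4.79. It reached 7.96 in Res 177, which was 3.25 above the control mean (9.51-fold) and 3.02 above the highest other tumour. Control and Res 499 tumours overlapped, and only the Res 177 tumour stood apart. Dsg3, the desmoglein targeted in pemphigus vulgaris, was at 4.48, 4.51, 4.46 and 4.51 in control, between 4.43 and 4.51 in Res 499 with a median of 4.46, and at 5.84 in Res 177. The gap of 1.33 to the highest other tumour compares with an SD of 0.03 in both other groups, among the smallest of the members. Dsg3 was among the lowest 25% of genes on this design, so this is the SD of a dim probe set.

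Dsc2 was at 4.55, 4.68, 4.56 and 4.56 in control, between 4.52 and 4.62 in Res 499 with a median of 4.54, and at 4.83 in Res 177. The Res 177 tumour was again the highest, but by 0.15. Dsg2 was at 5.04, 4.91, 5.04 and 5.35 in control, between 4.94 and 5.22 in Res 499 with a median of 5.04, and at 5.04 in Res 177, inside the range of the controls. Dsg2 is the only member with a second probe set on this design. That probe set gave 4.83 ± 0.10 (SD, n = 4) in control, 4.80 ± 0.07 (SD, n = 7) in Res 499 and 4.93 in Res 177, a difference from control of 0.10 where the chosen probe set gave -0.05. On both, the difference was about the size of the control SD or smaller.

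Of the plaque genes, Dsp behaved like Dsc3. It was at 5.18, 5.16, 5.19 and 5.50 in control and between 5.10 and 5.49 in Res 499, with a median of 5.26. In Res 177 it was at 8.17, 2.91 above the control mean (7.53-fold) and 2.67 above the highest other tumour, which was control replicate 5. Perp was at 5.54, 5.17, 5.37 and 5.66 in control, between 5.39 and 5.81 in Res 499 with a median of 5.53, and at 8.45 in Res 177. That is 3.01 above the control mean (8.05-fold) and 2.63 above the highest other tumour. Pkp1, the plakophilin of suprabasal epidermis, was at 5.87, 5.50, 5.66 and 5.91 in control, between 5.60 and 5.97 in Res 499 with a median of 5.78, and at 6.70 in Res 177. Its excess of 0.97 over the control mean was the smallest of the 5 large differences and lay just under the 1 log2 mark that Dsg3, at 1.35, passed; the next member, Dsc2, followed at 0.24.

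**Figure D1:**
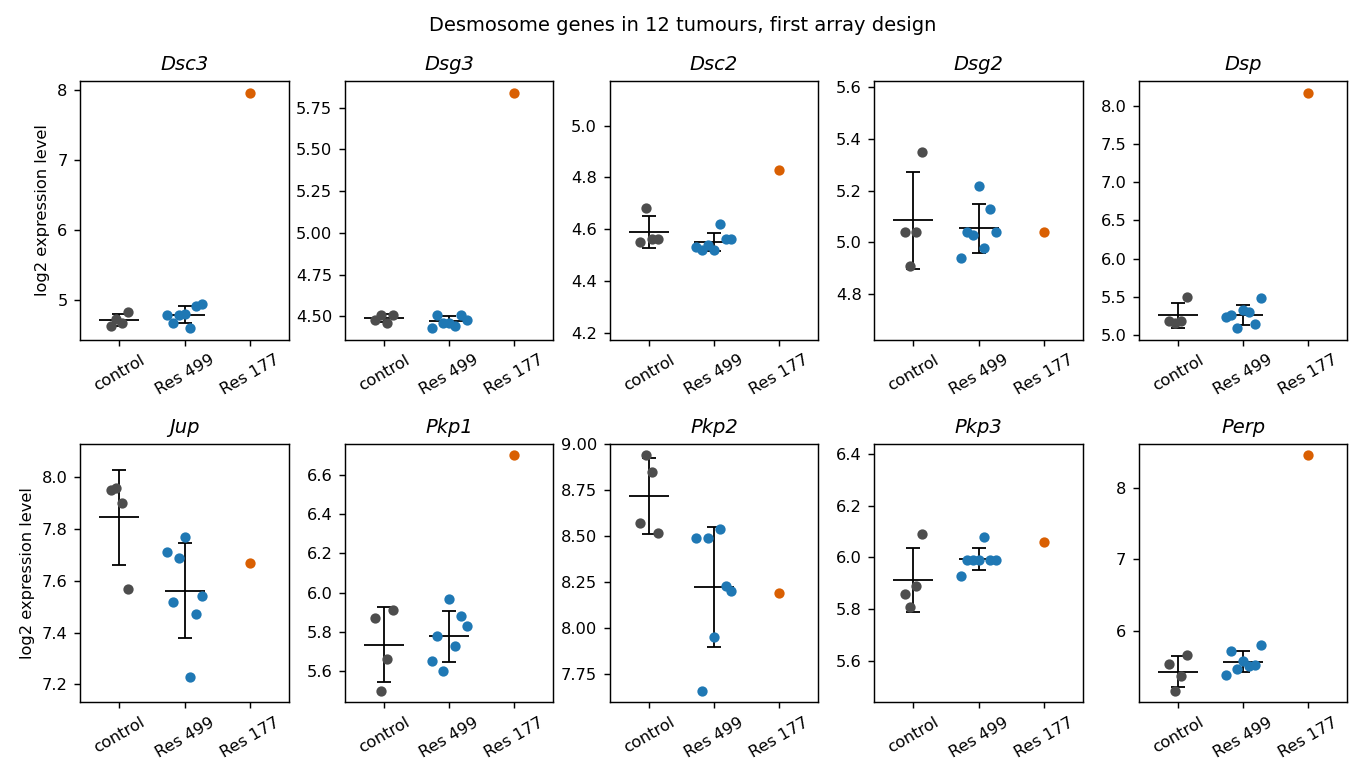
Log2 expression level (vertical axes, which differ in range between panels) of the 10 desmosome genes in 4 control, 7 Res 499 and 1 Res 177 tumours of the first array design; each point is a tumour, the wide mark is the group mean and the bar the SD. The Res 177 point stands 2.63 or more above every other tumour for Dsc3, Dsp and Perp, and within the other tumours' range for Dsg2, Jup, Pkp2 and Pkp3.

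The other plaque genes did not share that excess. Pkp3, found in most epithelia, was at 5.86, 5.81, 5.89 and 6.09 in control, between 5.93 and 6.08 in Res 499 with a median of 5.99, and at 6.06 in Res 177, below control replicate 5. Pkp2, the plakophilin of simple epithelia and heart that also occurs at adherens junctions of other cells, was at 8.57, 8.94, 8.85 and 8.52 in control. It lay between 7.66 and 8.54 in Res 499, with a median of 8.23, and at 8.19 in Res 177, 0.53 below the control mean. Jup was at 7.95, 7.96, 7.90 and 7.57 in control, between 7.23 and 7.77 in Res 499 with a median of 7.54, and at 7.67 in Res 177, 0.17 below the control mean. Pkp2 and Jup were the only members above the median gene level of their array design, on each design. Among the 12 tumours, Res 177 was thus the highest for 6 of 10 members, a position it held for 7.10% of all genes. It was higher than control by 1 log2 or more for 4 members, against 0.879% of all genes; since this contrast chose the members, both counts only describe the choice. The median difference over the 10 members was 0.60, and over all genes 0.01.

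A second Res 177 tumour, on the other array design, put the same 3 genes, Perp, Dsp and Dsc3, highest of the members. Their differences were smaller than on the first design. This tumour was not the stated basis of the choice, but earlier results of these data were known when the members were chosen. Perp was at 7.72 in Res 177 and 5.89 in control, a difference of 1.83 (3.55-fold). Dsp was at 7.49 and 6.29, a difference of 1.20 (2.30-fold), and Dsc3 at 6.53 and 5.49, a difference of 1.04 (2.05-fold). Out of 19938 genes ranked by this difference, Perp was number 46, Dsp number 126 and Dsc3 number 168. With 1 tumour in each arm there is no replicate check and no test. A difference of 1 log2 or more upward was found for 3 of 10 members and for 0.928% of all genes.

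The remaining members were close to the control tumour of the second design. Pkp1 was at 7.25, which was 0.25 above control where the first design had 0.97. Dsg3 was at 5.56 against 5.36, a difference of 0.19 where the first design had 1.35. Dsc2 was at 5.48 against 5.40, Pkp3 at 7.33 against 7.25 and Dsg2 at 5.67 against 5.62. Pkp2, at 8.88 against 9.05, and Jup, at 9.55 against 9.80, were lower by 0.17 and by 0.25. They were the only members that lay below control on both designs. The median over the members was 0.14 and the mean 0.43, and the median over all genes was 0.03. Markers of other cells also differed between these 2 tumours: the mean of 5 leukocyte markers was 1.33 higher in Res 177, with 5 of 5 above control, that of 10 macrophage markers 1.07 higher, with 9 of 10 above, and that of 9 fibroblast markers 0.20 higher. Their part in the desmosome values was not tested.

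**Figure D2:**
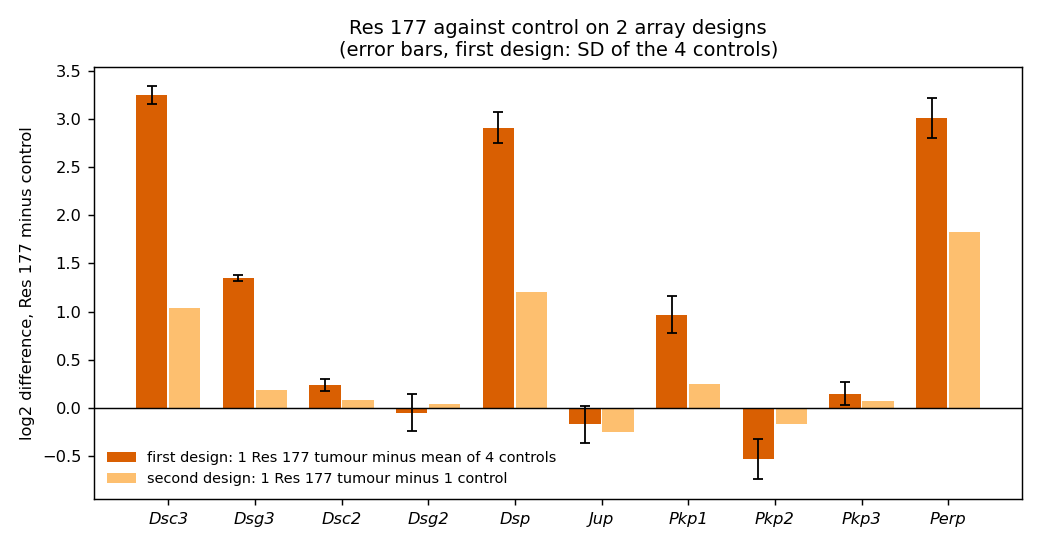
Log2 difference of the Res 177 tumour from control (vertical axis) for each desmosome gene, dark bars for the first design (1 tumour minus the mean of 4 controls, error bars the SD of those controls) and light bars for the second design (1 tumour minus 1 control). In the deposited values Dsc3, Dsp and Perp exceed 1 log2 on both designs, and Dsg3 on the first alone, at 1.35 against 0.19.

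In Res 499, the other resistant subline, no desmosome gene passed the test. By limma with Benjamini-Hochberg adjustment over all 22180 genes, 0 of 10 members were called higher, against 0.0992% of all genes, and 0 were called lower, against 0.113%. Unadjusted, 2 members had a p under 0.05, as did 2455 genes in all. No member had groups that did not overlap, where 0.996% of all genes lay wholly higher in Res 499 and 0.906% wholly lower. The median change over the members was -0.01, with 5 of 10 positive, and 0.01 over all genes.

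The members that stood out in Res 177 were close to control in Res 499, and their intervals were narrow. All of them lay below the median gene level of that design. Without the Res 177 tumour, Dsc3 and Dsg3 were among the lowest 25% of genes. Whether a change in RNA would show at such low levels was not tested. Dsp differed by 0.01 (SE 0.09; 95% interval -0.18 to 0.20), Dsc3 by 0.08 (SE 0.07; -0.08 to 0.24) and Perp by 0.13 (SE 0.10; -0.09 to 0.35). Pkp1 was at 0.04 (-0.16 to 0.24) and Dsg3 at -0.02 (-0.12 to 0.08). The upper bound for each of these 5 genes lies well under the difference seen in the Res 177 tumour of the same design, although both comparisons share the 4 controls. For Dsp, Dsc3 and Perp the choice of members used that gap. Perp also belongs to the p53 targets, and 6 of 7 Res 499 tumours lay above its control mean. Its change did not pass (limma adjusted p = 0.691), and for Pkp3 0 of 7 lay below the control mean. The share of all genes with such counts was not computed. Dsc2, Dsg2 and Pkp3 had changes of -0.04, -0.03 and 0.08, each within 0.21 of 0 at both ends of its interval. These values bound the change in measured level but do not show that the groups are equal.

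Pkp2 and Jup had an unadjusted p under 0.05 and both lay on the low side. Pkp2 was at 8.49, 7.66, 8.49, 7.95, 8.54, 8.23 and 8.20 in Res 499 replicates 1 to 7, and 6 of these 7 lay below every control. The difference from control was -0.50 (SE 0.16; 95% interval -0.85 to -0.14) and did not pass over all genes (limma adjusted p = 0.258). Jup was at 7.71, 7.52, 7.69, 7.77, 7.23, 7.47 and 7.54, with 4 of 7 below every control and 7 of 7 below the control mean. Its difference was -0.28 (SE 0.11; 95% interval -0.52 to -0.05; limma adjusted p = 0.341). The groups overlapped for both: 1 control tumour, replicate 5, was low for Jup at 7.57, and Res 499 replicate 5 reached 8.54 for Pkp2, above control replicate 5 at 8.52. A fit that held leukocyte content as a covariate gave Pkp2 and Jup differences of -0.52 and -0.27.

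**Figure D3:**
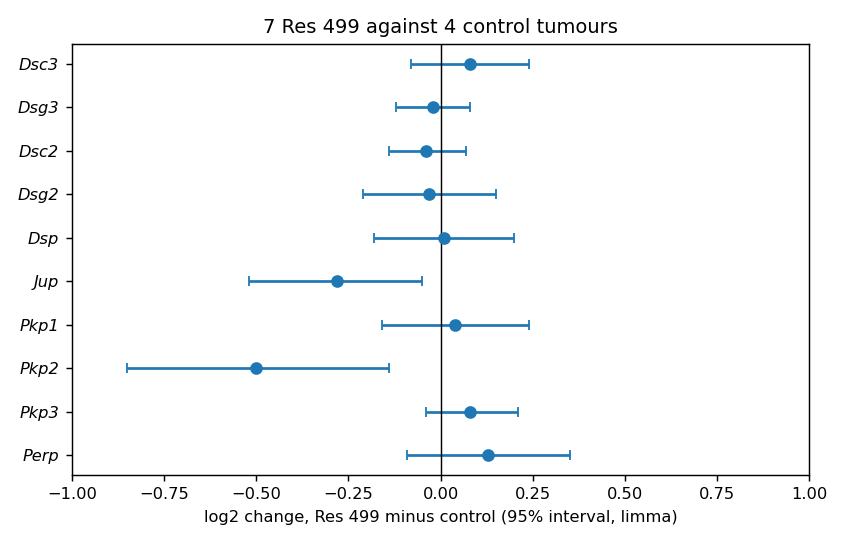
Log2 change of each desmosome gene in 7 Res 499 against 4 control tumours (horizontal axis), with the 95% interval from limma; none passed after adjustment over all genes. The intervals of Pkp2 and Jup lie below 0 and those of the other 8 genes span it.

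Within groups the SD of the members ran from 0.03 to 0.21 in control and from 0.03 to 0.33 in Res 499, where the median SD over all genes was 0.12 and 0.14. It exceeded that median for 7 of 10 members in control and for 3 of 10, Perp, Pkp2 and Jup, in Res 499. Control replicate 5 was the highest control for 6 of 10 members and the lowest for 2, Pkp2 and Jup. Its array had a median of 5.79 where the remaining control arrays had 5.74 to 5.75; the part of this offset in the values was not tested. In Res 499 the highest value fell in replicates 2, 4, 5 and 7 for 1, 3, 3 and 3 members, so no tumour of that group was high throughout. Over the 12 tumours, each of Dsp, Dsc2, Dsc3, Dsg3, Perp and Pkp1 had a correlation of 0.85 to 0.99 with the mean of the other 9 members, and Dsg2, Pkp2, Pkp3 and Jup had -0.23 to 0.30. Without the Res 177 tumour all 10 lay between -0.46 and 0.49. The shared pattern of the first 6 genes rested on that tumour.

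Of 10 further genes of desmosomes, corneodesmosomes, plakins and intercalated discs, 0 passed in Res 499 and the median change was -0.01. In Res 177 on the first design 4 of 10 were the highest of the 12 tumours, and the median difference was 0.28. Dsc1, the desmocollin of the upper epidermis and inner root sheath, was 1.66 above the control mean at 6.21. Dsg1a, at 0.97, belongs to a group of near-identical desmoglein genes, so its value is uncertain. Dsg4, the hair shaft desmoglein, was 0.69 above control on the first design and 0.57 on the second, and Ppl, encoding periplakin, was 0.47 and 0.08 above. The widespread armadillo gene Pkp4 differed by 0.04 and 0.05.

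The lists of other junction classes had smaller medians in Res 177 on the first design than the members at 0.60, whose choice used that contrast. On the second design the median of the members was 0.14. Adherens junction genes had a median of 0.02 in Res 177 on the first design and 0.00 on the second. Cdh1, encoding E-cadherin, lay 0.34 and 0.27 above control and Cdh2, encoding N-cadherin, 0.37 and 0.14 below. Nectin1 and Nectin4, both 0.43 above on the first design, were 0.05 and 0.06 above on the second. Tight junction genes had medians of 0.17 and 0.10, led by Cldn1, a claudin of epidermis, at 1.53 and 0.79, with Cldn4 at 0.35 and 0.21 and Tjp1 at -0.23 and -0.15. Hemidesmosome genes, which anchor keratins to the basement membrane, had medians of 0.09 and 0.12; Col17a1 was at 0.30 and 0.15, Lama3 at 0.38 and 0.10, Plec at -0.42 and -0.36 and Dst at -0.32 and -0.51.

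In Res 499 the adherens and hemidesmosome lists held no called gene. In the tight junction list 1 of 11 was called: F11r, which encodes the adhesion molecule JAM-A, rose by 0.95 (SE 0.17, limma adjusted p = 0.0476), with control tumours at 7.62 ± 0.44 (SD, n = 4) and Res 499 tumours at 8.57 ± 0.19 (SD, n = 7). Over the alternatives its change ran from 0.78 to 1.13 and its limma adjusted p from 0.0218 to 0.170. The call was lost without any 1 of control replicates 3, 4 and 5 or Res 499 replicates 1, 3, 4, 5, 6 and 7 (adjusted p 0.0560 to 0.170), and with the leukocyte covariate (adjusted p = 0.142). It was 0.96 above control in the Res 177 tumour of the first design and 0.10 on the second.

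Of 13 transcription and splicing regulators of epithelia 8 were the highest in Res 177 on the first design, and the list median was 0.29 there and 0.08 on the second. Trp63, which encodes the p63 regulator of Perp and of epidermal identity, was 0.49 above control in Res 177 on the first design and 0.03 below on the second. Klf5 was at 0.46 and 0.08, Ovol1 at 0.40 and 0.28 and Tfap2a at -0.35 and 0.04. Of the repressors of epithelial genes, Snai2 was at 0.27 and 0.41, Zeb1 at 0.02 and 0.06, Twist1 at -0.01 and 0.22 and Snai1 at 0.00 and 0.08. In Res 499, 0 genes of these 2 lists passed.

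Hair follicle markers lay above control in both Res 177 tumours. Most interfollicular keratinocyte markers did too, but by less on the second design. Of 13 interfollicular keratinocyte genes 12 were the highest in Res 177 on the first design, and the list mean was 1.02 above control, against -0.03 to 0.05 in control and -0.16 to 0.12 in Res 499 tumours. Krt14, the basal keratin, was 2.39 above control on the first design and 1.08 on the second, while the suprabasal genes Krt10 at 2.35 and 0.35, Krtdap at 2.31 and 0.18 and Dmkn at 1.79 and 0.12 differed mainly on the first. Of 19 hair follicle genes 14 were the highest in Res 177, with a list mean of 1.77, against -0.08 to 0.10 in control and -0.09 to 0.06 in Res 499. Tchh, the trichohyalin of the inner root sheath, was 5.06 and 1.24 above control, and Krt17 3.59 and 2.08. Krt6a at 3.58 and 0.49 and Krt6b at 4.33 and 0.09 are near-identical genes with uncertain values. On the second design all 19 hair follicle genes were above control, with a median of 0.84. Of the 12 interfollicular genes on both designs, which leaves out Flg, 10 were above control there, with a median of 0.15. Over all 13 interfollicular genes on the second design the median was 0.18, with 11 above control and 2 by 1 log2 or more. The median over all genes of that design was 0.03. The part of skin cells in the desmosome values was not tested.

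The sebaceous gland list had a mean of 0.53 on the first design, with 5 of 9 genes highest there, Far2 at 1.52, Krt79 at 1.30, Elovl3 at 0.73 and Awat1 at 0.52, and a median of 0.06 on the second. Of 7 simple epithelium genes 4 were the highest in Res 177 on the first design, where the list mean was 0.17 against at most 0.07 in control and 0.16 in Res 499 tumours. Their median was 0.18 and 0.03 on the 2 designs, with Epcam at 0.47 and 0.08, Krt18 at 0.22 and 0.00 and Krt19 at -0.19 and 0.06. Leukocyte, macrophage and fibroblast lists, at 1.02, 1.06 and 0.70 in Res 177 on the first design, were higher still in several Res 499 tumours, where they reached 1.71, 1.85 and 1.37. The mean of the desmosome genes in Res 499 replicates 1, 2, 3 and 5, the leukocyte-rich ones, was -0.07, -0.11, -0.06 and -0.07 relative to control. It was 1.11 in Res 177, the tumour used in choosing the members. The part of leukocytes, macrophages and fibroblasts in the desmosome values was not tested. Endothelial, adipocyte and skeletal muscle lists had means of 0.13, 0.26 and -0.16 in Res 177.

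**Figure D4:**
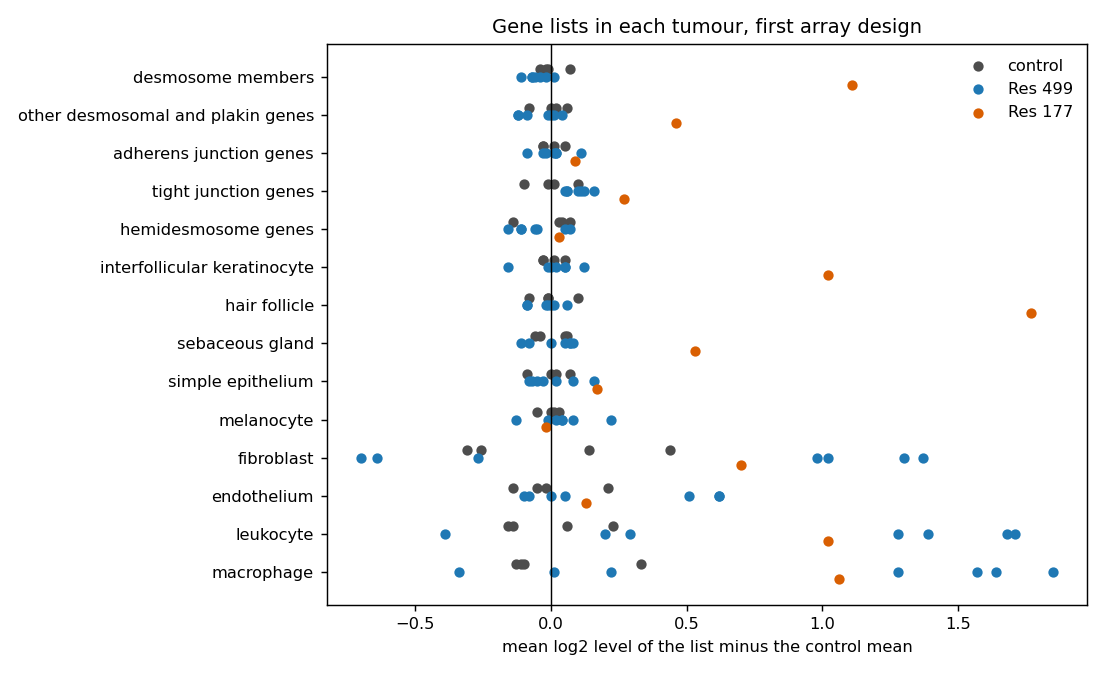
Mean log2 level of each gene list relative to the control mean (horizontal axis) in every tumour of the first array design; each point is a tumour, coloured by subline. The Res 177 tumour stands apart for the desmosome genes at 1.11, the interfollicular keratinocyte genes at 1.02 and the hair follicle genes at 1.77, and lies among the Res 499 tumours for leukocyte, macrophage and fibroblast genes. It is also the highest, by less, for sebaceous gland genes at 0.53 and other desmosomal and plakin genes at 0.46. The same holds for tight junction genes at 0.27 and simple epithelium genes at 0.17.

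The genes whose profile over the 12 tumours was most like the mean of the desmosome genes were Defb6, Krt25, Serpinb5, Tchh, Krt14, Krtap8-1, Krtap6-1, Krtap4-1, Tprg and Dsc1, with correlations of 0.996 for Defb6 to 0.988 for Dsc1. Krt25 is a keratin of the inner root sheath, the Krtap genes encode proteins of the hair shaft, and Serpinb5 encodes the epithelial serpin maspin. Without the Res 177 tumour all these correlations were lower, but to unlike extents. They were 0.73 for Defb6, 0.68 for Tchh, 0.62 for Tprg, 0.55 for Serpinb5, 0.55 for Krt14 and 0.49 for Krt25. For Krtap8-1, Dsc1, Krtap4-1 and Krtap6-1 they were 0.33, 0.23, 0.15 and 0.05. On the second design Krtap8-1 was 3.28 above control, Krt25 2.47, Krtap6-1 1.86 and Serpinb5 1.56, while Defb6 and Tprg differed by 0.01 and 0.03. Over the 11 tumours without Res 177 the most alike were Macroh2a3, Umod, Sowahb, Ttll10, Zg16, Inafm2, Mcidas, AY702103, Zkscan17 and Anks1b, at 0.86 to 0.92, and none of them was among the first 10. Their differences between Res 177 and control on the first design ran from -0.44 for Inafm2 to 0.06 for Anks1b.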

How the data were processed

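Total RNA of 14 tumours was hybridised to Affymetrix whole-transcript arrays of 2 designs. The deposited values are log2 levels, 1 per probe set and tumour, which the authors made with RMA in oligo, per the submitters' processing notes; versions, build and annotation: not given in the sources used here. The log2 scale was read from the values. The designs were normalized separately and never pooled. Probe sets with 1 symbol in the platform annotation were used (23521 of 41345 and 21789 of 35556), and the one with the highest mean stood for each gene. No member's symbol occurred on a probe set with several.

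Res 499 was tested against control over all 22180 genes with lmFit and eBayes (limma 3.58.1, R 4.3.3), 3 groups sharing 1 spread, Benjamini-Hochberg adjustment and a threshold of 0.05. The single Res 177 tumour adds nothing to that spread, so the alternative that left it out could not change this test. The test was checked on simulated data. Differences of a single Res 177 tumour carry no test. Groups come from the subline label, and replicate numbers follow the deposited order. The number of arrays limits the precision.

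The members and the gene lists were chosen with earlier results of these data known. All members are named. Of each other list, up to 4 genes with the largest Res 177 difference on the first design and every gene called in Res 499 are named, and so are the 10 genes most correlated with the members' mean over 12 and over 11 tumours, without predicted genes, small RNAs and receptor families. Alternatives covered dim-gene filters, probe set choice, normalization, the prior, array weights, a leukocyte covariate and each tumour left out; following F11r through them was decided after seeing the data.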

Additional observations from a re-analysis of the deposited data

Results flagged for a closer look

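In groups of 4 or 7 tumours, 4 of 20 groups had a tumour set apart from the others by Dixon's ratio, where chance gives about 1 in 20 groups. Control replicate 5 was high for Dsp, at 5.50 where the next control was at 5.19, and low for Jup, at 7.57 where the next was at 7.90. Control replicate 3 was high for Dsc2, at 4.68 against 4.56, and Res 499 replicate 5 was high for Dsc2, at 4.62 against 4.56. The Dsc2 gaps are small in size, as this gene varied little in any group.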

How the results depend on the processing

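Under all 20 alternatives 0 members were called in Res 499, with the smallest adjusted p between 0.118 (array weights) and 0.552 (without control replicate 4). Over the same settings Pkp2 stayed between -0.56 and -0.40 and Jup between -0.38 and -0.23. Dropping the lowest 50% of genes put the median of the members at -0.39, because only Pkp2 and Jup remained, and ran from -0.02 to 0.07 with 1 tumour left out, 0.07 without control replicate 5. Directions near 0 turned: Dsp was at -0.02 after quantile normalization and at -0.02 after median centring, and Dsg2 at 0.01 with array weights and 0.01 with the leukocyte covariate. Leaving out 1 tumour moved Dsp from -0.03 to 0.09, Dsg2 from -0.09 to 0.06 and Pkp1 from -0.04 to 0.10. The cause of these turns was not tested. The number of genes called in all, 47, ran from 6 without control replicate 4 to 268 with array weights, and was 181 without Res 499 replicate 2. Leaving out the lowest 25% kept 8 of 10 members, and 7 when the Res 177 tumour was not counted in the mean, since Dsc3 then fell out with Dsc2 and Dsg3. In Res 177 the count of 6 highest members was unchanged in all 14 alternatives. Most of these left out 1 control or Res 499 tumour, which cannot lower the count. The first-design median lay between 0.55 and 0.63, and the second-design median between 0.06 and 0.14.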
